A study of Mus musculus with 80 samples.

Results

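Bulk RNA-seq was used to ask how the transcriptome of haematopoietic stem cells (HSCs) changed with age, and the comparison described here set freshly sorted old HSCs against freshly sorted young HSCs. It took 6 of the 24 bulk RNA libraries in a series of 80 samples, 3 libraries per age. Tests covered the genes that averaged 1 FPKM or more (fragments scaled to gene length and to the mapped total) in either age, which was 11279 of 21825 gene symbols. The donors were male C57BL/6 mice of 2 to 3 months (young) or 22 to 24 months (old), with no allele or treatment named for either age. Marrow from crushed limb bones, pelvis and spine was depleted of lineage-positive cells and long-term HSCs were sorted as CD150+CD48-CD34- cells of the Lin-Sca-1+c-Kit+ fraction, and RNA was amplified by SMART-Seq v4, a full-length cDNA method for few cells. Neither the labels nor the methods say whether a library came from 1 mouse or from pooled mice, so the p-values below measure only the spread between these libraries, which may be technical.

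HSCs sit at the top of blood formation. They are mostly quiescent, renew themselves, and give rise to lymphoid, myeloid, erythroid and megakaryocyte progenitors. With age the marrow of a mouse holds more cells with the HSC surface phenotype, and their output is known to shift away from lymphocytes and towards myeloid cells and platelets. Because a bulk library averages over the sorted cells, fewer cells of one type and less RNA per cell cannot be told apart in any of the values below.

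The 6 libraries were alike. Between 10785 and 10969 genes reached 1 FPKM in each, and since the tables hold no counts the depth of each library is unknown. Correlations of log2 levels across genes, which are not independent replicates, ran from 0.986 to 0.989 within an age and from 0.976 to 0.982 between ages. Stem-cell genes were abundant (summed level of the 25 genes on an HSC identity list, 2695 to 2888 FPKM in young and 3681 to 4356 FPKM in old libraries). Among genes that define mature cells, Cd3e was at 0 in all 6 libraries. The macrophage gene Adgre1 was at no more than 0.581 FPKM in any. Other markers of mature cells were present. The summed level of the erythroid list was 1280 to 1564 FPKM in young and 1540 to 2359 FPKM in old libraries. That of the macrophage list was 597.9 to 668.4 FPKM, nearly all of it Lyz2. Library-specific signals were old replicate 1, with haemoglobin Hba-a1 at 467.6 FPKM, and young replicate 3, with the immediate-early gene Fos at 1137 FPKM against 3.09 to 12.9 FPKM in the other libraries.

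A gene was called when its adjusted p was below 0.05 and its fold change above 2 or below 0.5 (limma on log2(FPKM + 1), on which scale all log2 fold changes are given, old minus young, with their standard errors). By this rule 217 genes (1.92%) were higher in old HSCs and 195 (1.73%) were lower, and 2680 genes (23.8%) had groups that did not overlap. The shares of 1.92% and 1.73% are the background for each count of called members below. A gene can belong to more than 1 group (Procr, Cd34 and Flt3 do), so counts of different groups are not independent. Groups did not overlap for 216 of the 217 higher and all 195 lower calls, so non-overlap adds little to a call. The median over all genes was 0.01. Of the called genes, 111 of the higher and 77 of the lower ones were still called whichever library was left out, and 38 and 6 in every alternative run. Without the filter on low values the counts were 50 and 11 (with 0 of the replication and 1 of the mitotic genes described below among the lower), and with the spread taken from all 24 bulk libraries 167 and 140. The number called lower fell to 113 without young replicate 1 and to 127 without young replicate 2. Beyond the few best known ageing genes, lower calls were most numerous among mitosis genes (37 of 73). S-phase histone genes, a group chosen after its values were seen, had 18 of 55, and DNA replication genes 15 of 55. Higher calls included single members of the glutathione, metallothionein, BMP, adhesion and lipid receptor groups, whose medians ran from 0.03 to 0.40, and the ribosome, proteasome and respiratory chain held no called gene.

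**Figure D1:**
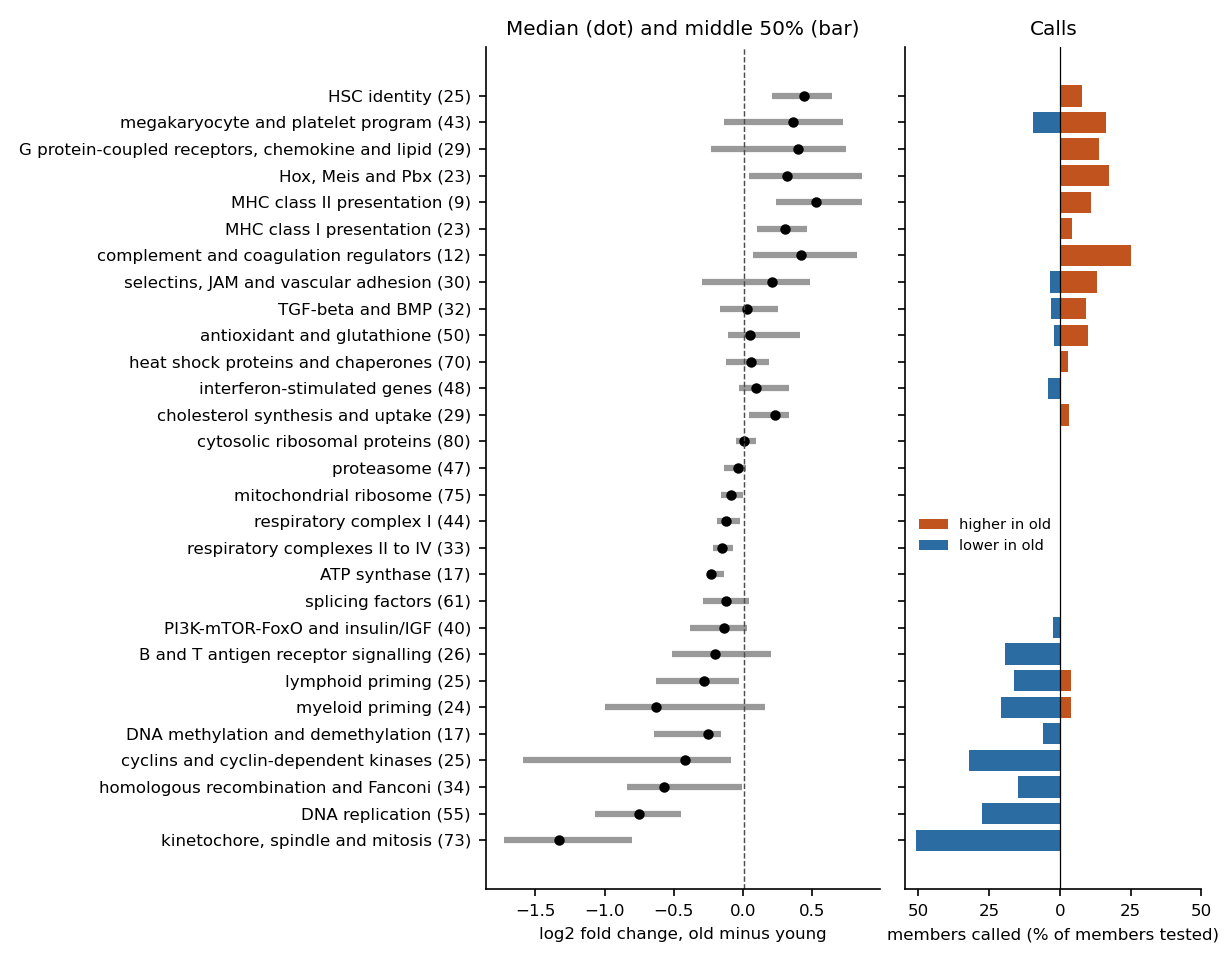
Gene groups in old against young HSCs, with the number of genes tested in brackets. Left, median (dot) and middle 50% (bar) of the log2 fold change, dashed line at the median of all genes; right, percent of the tested members called higher (orange, to the right) or lower (blue, to the left). The kinetochore, spindle and mitosis group lies lowest, with a median of -1.33 and 37 of 73 genes called lower.

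Metallothioneins are small cysteine-rich proteins that bind zinc and copper and buffer oxidants, and their genes are switched on by metal through the transcription factor MTF1. Of the 36 metal-handling genes tested, 2 were called higher, both of them metallothioneins, and none was called lower. Mt2 (chr8:94172618-94173567) was at 0.209, 0.572 and 2.43 FPKM in the young libraries and at 83.6, 89.5 and 115.6 FPKM in the old ones. The ages did not overlap, and the log2 fold change of 5.69 ± 0.33 (adjusted p = 2.47e-06) was the largest of all genes tested. Mt1, its neighbour on the chromosome, had a higher level in young HSCs (56.8, 61.5 and 99.5 FPKM) and reached 375.0, 451.5 and 510.3 FPKM in old HSCs (log2 fold change 2.63 ± 0.19, adjusted p = 1.15e-05). The remaining 34 genes, which include zinc transporters, iron carriers and storage proteins, held 1 that passed the adjusted p without reaching the fold, the transferrin gene Trf (-0.93 ± 0.23, adjusted p = 0.0322), which was chosen after its values were seen.

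The sequence before the Mt2 start is shown because this gene changed most and its known regulator reads a short core, TGCGCNC or TGCACNC on either strand. The 250 bases are from RefSeq (GRCm38.p6, plus strand, chr8:94172368-94172617), and capitals mark the 3 core matches.
Mt2 promoter: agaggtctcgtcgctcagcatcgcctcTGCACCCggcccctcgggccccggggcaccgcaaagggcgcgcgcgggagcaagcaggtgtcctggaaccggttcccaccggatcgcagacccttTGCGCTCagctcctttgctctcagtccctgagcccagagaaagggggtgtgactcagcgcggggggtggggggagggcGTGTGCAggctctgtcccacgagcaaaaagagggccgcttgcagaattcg
With a match just after the start there were 4 in the 300-base window (250 bases before to 50 after the start). Among all tested genes with a promoter in the RefSeq set, 40.6% held at least 1 match and 0.99% held 4 or more. Of the 29 metal-handling genes with a promoter, 51.7% held a match. A match is a description of the letters only.

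Some glutathione enzymes were also higher in old HSCs, while their group as a whole had a median of 0.05. Of its genes 58.0% had a fold change above 0, against 52.0% of all genes tested. Among 50 antioxidant and glutathione genes tested (57 in the tables), 5 were called higher and 1 lower, against 1.92% and 1.73% of all genes. At any fold 9 and 3 passed the adjusted p, against 3.23% and 2.85% of all genes. Gstm2, a mu-class glutathione S-transferase (chr3:107981702-107986420), was at 34.1, 23.7 and 25.9 FPKM in young and at 152, 183 and 163 FPKM in old HSCs, with no overlap (log2 fold change 2.55 ± 0.15, adjusted p = 2.47e-06). Gpx3, the secreted glutathione peroxidase, was at 5.63, 0.865 and 2.02 FPKM in young and at 20.6, 22.7 and 21.6 FPKM in old HSCs (2.76 ± 0.37, adjusted p = 0.00133). Gpx8, a peroxidase of the endoplasmic reticulum, rose from 4.68, 0.746 and 6.60 FPKM to 22.4, 16.3 and 15.1 FPKM (2.15 ± 0.44, adjusted p = 0.0147).

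Other glutathione S-transferases moved the same way by less. Gstt1 went from a mean of 39.1 ± 4.3 to 80.9 ± 15.8 FPKM (SD, n = 3) and its call was lost without young replicate 1 (log2 fold change 0.96), young replicate 2 (0.99) or old replicate 2 (0.86). Gstm6 (2.55 ± 0.73 to 6.34 ± 1.54 FPKM) lost its call on leaving out any library, with an adjusted p of up to 0.147. Gstm1, Gstm4, Gstm7 and Gstt3, chosen after their values were seen, passed the adjusted p with log2 fold changes of 0.61, 0.74, 0.79 and 0.72. The mu-class genes are close copies, so reads may have been shared among them. Gstm5, also chosen after its values were seen, overlapped between ages (147.6, 135.5 and 105.8 against 146.7, 182.6 and 147.7 FPKM). Mgst1, a membrane-bound transferase abundant in myeloid cells, fell from 92.2, 104.5 and 62.8 FPKM to 37.0, 31.1 and 31.6 FPKM (-1.33 ± 0.18, adjusted p = 0.00128). The count of 5 higher genes became 3 without young replicate 1 or old replicate 2.

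**Figure D2:**
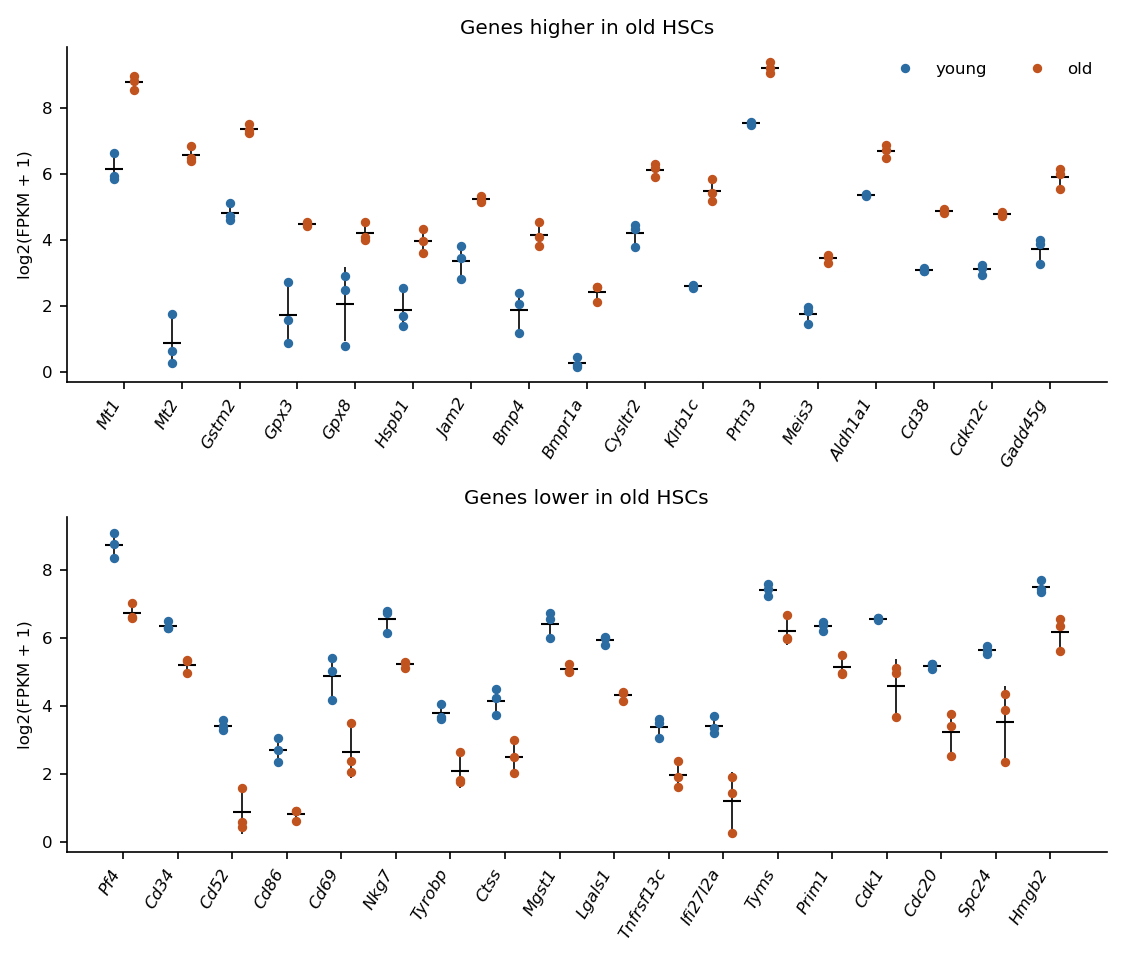
Levels of 17 genes called higher (top) and 18 called lower (bottom) in old HSCs, as log2(FPKM + 1) on the vertical axis. Points are single libraries (blue, young; orange, old), horizontal ticks and bars are the mean and SD of 3 libraries. The ages do not overlap for any gene shown; Mt2 spans the widest gap.

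Chaperones held fewer calls. Of 70 heat shock and chaperone genes 2 were called higher, and the group median was 0.06. One was Hspb1, a small heat shock protein that binds unfolded proteins and actin, at 2.27, 4.84 and 1.64 FPKM in young and at 11.3, 19.3 and 14.9 FPKM in old HSCs (log2 fold change 2.10 ± 0.31, adjusted p = 0.00255). The other was Clu. The inducible Hspa1a stood at 0.194, 1.06 and 0.578 FPKM in young and was under 5 FPKM in old libraries (0.32 ± 0.54, adjusted p = 0.824). Among 35 genes of the unfolded protein response 1 was called, Nupr1, and the median was 0.19. At any fold 4 passed the adjusted p upward and 0 downward. The summed level of this list was 2037 to 2896 FPKM in young and 3120 to 3790 FPKM in old libraries. In the single-cell libraries described below, 8 of 31 (25.8%) were higher in the old library, against 34.1% of all genes tested in bulk. The 14 chaperonin and prefoldin genes and 47 proteasome genes held no called gene, with medians of -0.08 and -0.04.

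Some groups of receptors and adhesion molecules at the cell surface had most of their calls in the upward direction, while others did not. Tetraspanins had 0 of 21 genes called higher and 1 lower. Cytokine receptors had 1 and 1 of 29, and the TNF receptor family and ligands 0 and 1 of 27. The 29 chemokine, lipid and related G protein-coupled receptors tested (57 in the tables) had 4 called higher, none lower and a median of 0.40. Cysltr2, a receptor for cysteinyl leukotrienes (chr14:73025672-73049114), was at 21.3, 12.96 and 19.4 FPKM in young and at 79.1, 72.6 and 59.4 FPKM in old HSCs, which did not overlap (log2 fold change 1.94 ± 0.19, adjusted p = 0.000165). Ptger4, a prostaglandin E2 receptor, went from 6.33 ± 1.25 to 14.8 ± 3.5 FPKM (SD, n = 3; 1.10 ± 0.23, adjusted p = 0.0163). Its call was lost without young replicate 1, young replicate 3, old replicate 1 or old replicate 3 (adjusted p = 0.0553, 0.0499, 0.0515 and 0.0537 in that order). The fold was under 2 without young replicate 3 (log2 fold change 0.98) and without old replicate 1 (0.93). Of 31 calcium and arachidonate signalling genes 2 were called higher and 1 lower, with a median of 0.17, against 1.92% and 1.73% of all genes called. Hpgds, which makes prostaglandin D2, rose from 3.32, 2.28 and 5.49 FPKM to 11.8, 23.3 and 10.0 FPKM (1.74 ± 0.33, adjusted p = 0.0107). The leukotriene C4 synthase gene Ltc4s was the lower one. Its call was lost on leaving out any library other than old replicate 2, with an adjusted p of up to 0.157.

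Adhesion genes of platelets and endothelium were called higher for 4 of 30 genes and lower for 1, Cd34. At an unadjusted p below 0.05 in limma 7 were higher and 5 lower, and the median was 0.21. Jam2, a junctional adhesion molecule, was at 6.09, 13.1 and 10.2 FPKM in young and at 35.2, 36.1 and 39.3 FPKM in old HSCs (log2 fold change 1.87 ± 0.23, adjusted p = 0.000766). A pair of further endothelial-type genes were among the 15 largest rises. The tight junction gene Cldn5 went from 4.81, 1.75 and 3.83 FPKM to 44.4, 34.2 and 40.0 FPKM (3.24, adjusted p = 4.16e-05), and Tm4sf1, a tetraspanin-like surface protein of endothelial cells, from 10.3, 8.52 and 4.599 FPKM to 76.5, 72.6 and 68.6 FPKM (3.12, adjusted p = 1.49e-05). Of 16 markers that define endothelial and stromal cells 4 were tested and none was called. The median of the 4 was -0.14, and at an unadjusted p below 0.05 in limma 1 was higher and 0 lower. The endothelial receptor gene Kdr was not called, with log2 fold changes from 0.82 to 1.13 over the runs without 1 library. The summed level of the 16 markers was 43.0 to 73.7 FPKM in young and 41.2 to 54.2 FPKM in old libraries.

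Among 32 genes of TGF-beta and BMP signalling 3 were called higher and 1 lower around a median of 0.03, and the called genes covered a ligand, a receptor and targets. Bmp4, a ligand that patterns embryonic blood and acts in the niche, was at 4.32, 1.27 and 3.17 FPKM in young and at 16.2, 22.6 and 13.3 FPKM in old HSCs (log2 fold change 2.28 ± 0.32, adjusted p = 0.00173). Bmpr1a, a type I BMP receptor (chr14:34411061-34503336), was at 0.174, 0.379 and 0.123 FPKM in young and at 5.00, 5.05 and 3.35 FPKM in old HSCs (2.15 ± 0.27, adjusted p = 0.000791). The ages did not overlap for either gene. The inhibitor of DNA binding Id2 rose from 25.3, 34.2 and 31.5 FPKM to 64.0, 79.9 and 59.3 FPKM (1.13 ± 0.16, adjusted p = 0.00173). Its relative Id1, a classical BMP target, moved the other way, from 6.73 ± 1.97 to 2.39 ± 0.21 FPKM (SD, n = 3; -1.16 ± 0.26, adjusted p = 0.0229), and lost its call without young replicate 2 (adjusted p = 0.0975), young replicate 3 (0.0679), old replicate 2 (0.0692) or old replicate 3 (0.0794).

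Other surface and secreted signals called higher included Efna1, an ephrin ligand (26.4 ± 5.4 to 60.3 ± 11.6 FPKM, log2 fold change 1.16 ± 0.18, adjusted p = 0.00331), and Sfrp1, a secreted Wnt antagonist (0.623 ± 0.369 to 3.36 ± 0.60 FPKM, 1.45 ± 0.28, adjusted p = 0.0114), both SD with n = 3. Of 14 matrix genes tested 3 were called higher, and Matn4, a matrilin whose loss is known to affect HSC stress responses, was at 0.00752, 0.369 and 0.249 FPKM in young and at 3.46, 3.27 and 5.27 FPKM in old HSCs (2.04 ± 0.28, adjusted p = 0.00145). The Notch list (19 genes) had no called gene in limma and none at an unadjusted p below 0.05, and the Wnt list had 1 of 22. Socs2, a feedback inhibitor of cytokine signalling, was at 56.2, 65.0 and 57.3 FPKM in young and at 46.5, 17.5 and 10.6 FPKM in old HSCs (-1.48 ± 0.38, adjusted p = 0.0398), where old replicate 1 stood near the young libraries. Its call was lost on leaving out any library other than old replicate 1, with an adjusted p of up to 0.136.

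The lineage programmes showed a split within the megakaryocyte genes. Of 43 megakaryocyte and platelet genes tested (52 in the tables), 7 were called higher and 4 lower, with a median of 0.36. Vwf, the platelet-adhesion protein that marks platelet-biased HSCs, rose from 29.5, 16.5 and 18.1 FPKM to 60.9, 41.6 and 64.2 FPKM (log2 fold change 1.36 ± 0.23, adjusted p = 0.00476). Plek, a substrate of protein kinase C in platelets, rose from 8.36, 3.94 and 5.80 FPKM to 16.4, 19.7 and 19.6 FPKM (1.52 ± 0.25, adjusted p = 0.0039). The alpha-granule chemokine Pf4 (chr5:90772435-90773383) went the opposite way, from 547.9, 433.1 and 322.8 FPKM to 98.0, 128.9 and 94.9 FPKM (-1.99 ± 0.18, adjusted p = 7.39e-05). The ages did not overlap for any of these genes.

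The remaining lower megakaryocyte calls depended on single libraries. Ppbp, another platelet chemokine, went from 14.3 ± 2.4 to 5.23 ± 2.57 FPKM (SD, n = 3) and was no longer called without old replicate 3 (adjusted p = 0.0559). Gata1, the erythroid and megakaryocyte transcription factor, went from 6.63 ± 3.54 to 1.56 ± 0.74 FPKM and was no longer called without young replicate 1 (0.0644), young replicate 3 (0.0782), old replicate 2 (0.0542) or old replicate 3 (0.0974). F2rl2, a thrombin receptor chosen after its values were seen, went from 4.25 ± 0.32 to 1.17 ± 0.47 FPKM (-1.297 ± 0.261, adjusted p = 0.0134, up to 0.0532 without 1 library). On the higher side the integrin beta chain Itgb3 (5.08 ± 0.82 to 12.5 ± 2.9 FPKM) lost its call without young replicate 2 (adjusted p = 0.054) or old replicate 1 (log2 fold change 0.97). Without old replicate 2 or old replicate 3 the count of lower megakaryocyte genes was 2. The core genes Itga2b and Nfe2 were not called (log2 fold changes of -0.36 and 0.34).

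Of 25 genes that prime HSCs for lymphoid fate (39 in the tables), 4 were called lower and 1 higher, 6 and 1 passed the adjusted p, and 24.0% had a fold change above 0. The antigen Cd52 was at 10.9, 9.55 and 8.73 FPKM in young and at 2.03, 0.355 and 0.503 FPKM in old HSCs (log2 fold change -2.55 ± 0.32, adjusted p = 0.000799). Flt3, the receptor of lymphoid-primed progenitors, went from 3.21 ± 0.42 to 0.786 ± 0.4203 FPKM (SD, n = 3; -1.26 ± 0.28, adjusted p = 0.02). The actin-binding Lsp1 fell from 174, 168 and 143 FPKM to 82.3, 78.2 and 71.3 FPKM (-1.05 ± 0.11, adjusted p = 0.000335). Flt3 was not called without young replicate 1 (adjusted p = 0.0567), young replicate 2 (0.076), old replicate 2 (0.0737) or old replicate 3 (0.0516), and Lsp1 lost its call, by the fold, without young replicate 1 or old replicate 3. The count of 4 became 1 without young replicate 1 or old replicate 3, and 2 without young replicate 2 or old replicate 2. The committed lymphoid genes Il7r and Dntt were at or near 0 in every library.

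Of 26 antigen-receptor signalling genes 5 were called lower and none higher, while 1 passed the adjusted p upward. The group went both ways: 34.6% had a fold change above 0, 4 were higher and 6 lower at an unadjusted p below 0.05, and its summed level was 727.9 to 1009 FPKM in young and 955.9 to 1245 FPKM in old libraries. The early activation antigen Cd69 fell from 16.9, 31.4 and 41.5 FPKM to 10.3, 4.23 and 3.13 FPKM (log2 fold change -2.22 ± 0.38, adjusted p = 0.00563). The costimulatory ligand Cd86 fell from 5.54, 4.07 and 7.26 FPKM to 0.884, 0.526 and 0.866 FPKM (-1.89 ± 0.27, adjusted p = 0.00214), and Tnfrsf13c, the BAFF receptor of B cells, from 10.2, 7.27 and 11.4 FPKM to 4.18, 2.08 and 2.75 FPKM (-1.42 ± 0.27, adjusted p = 0.00995). Young replicate 3, the library with high Fos, had the highest value of all 3 genes, and their calls held without it. The count of 5 became 3 without any 1 of the young libraries or without old replicate 2.

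In the myeloid list 5 of 24 tested genes were called lower and 1 higher. The adaptor Tyrobp went from 15.8, 11.6 and 11.2 FPKM to 5.20, 2.42 and 2.55 FPKM (log2 fold change -1.70 ± 0.28, adjusted p = 0.00404), and the lysosomal protease Ctss from 21.5, 17.6 and 12.3 FPKM to 7.01, 4.63 and 3.05 FPKM (-1.65 ± 0.28, adjusted p = 0.00593). The exception was Prtn3, a granule serine protease (chr10:79879667-79883174), at 187, 192 and 182 FPKM in young and at 534, 673 and 604 FPKM in old HSCs (1.68 ± 0.10, adjusted p = 2.47e-06). The granulocyte genes usually seen with it did not accompany it. Mpo was at 0 except for 0.394 FPKM in young replicate 3, and Elane was at 1.07 FPKM or less in each library. Ncf4, a subunit of the phagocyte NADPH oxidase and 1 of the 15 largest falls, went from 12.96, 5.91 and 11.8 FPKM to 1.31, 0.730 and 0.686 FPKM (-2.50, adjusted p = 0.000718). Lyz2, at 634 ± 5 and 622 ± 38 FPKM (SD, n = 3), was not called (-0.03, adjusted p = 0.902).

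Among markers of other mature cells, the 9 erythroid genes tested had 1 called lower and a median of 0.22, which was -0.39 without old replicate 1, the library with high haemoglobin, and a summed level of 1280 to 1564 FPKM in young and 1540 to 2359 FPKM in old libraries. Of 15 macrophage markers 6 were tested and 3, the complement C1q subunits, were called lower. The median of the 6 was -1.24 and 0.0% had a fold change above 0. At an unadjusted p below 0.05 in limma 5 were lower and 0 higher. C1qa was at 3.64, 1.33 and 3.43 FPKM in young and at 0, 0.345 and 0 FPKM in old HSCs, C1qb went from 5.395 ± 0.623 to 1.14 ± 0.96 FPKM and C1qc from 3.08 ± 1.15 to 0.364 ± 0.451 FPKM (SD, n = 3). Their calls were lost without young replicate 1 (C1qa, adjusted p = 0.0502, and C1qb, 0.0594), young replicate 2 (C1qb, 0.065, and C1qc, 0.0659) or old replicate 3 (C1qc, 0.0621), and the count of 3 became 1 without either of the first 2 libraries. The summed level of the 15 markers was 653 to 666 FPKM in young and 598 to 668 FPKM in old HSCs, nearly all of it Lyz2, and the defining gene Adgre1 was at 0.349, 0.0952 and 0.581 FPKM in young and at 0.322 FPKM or less in old libraries. The part of macrophage RNA in the lower myeloid genes was not tested.

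The T and NK markers held 1 gene called higher and 1 called lower among 6 tested. Klrb1c, which encodes the NK1.1 antigen in this strain (chr6:128778485-128788641), was at 5.32, 5.14 and 4.82 FPKM in young and at 35.9, 42.0 and 56.8 FPKM in old HSCs (log2 fold change 2.89 ± 0.20, adjusted p = 8.32e-06). Nkg7, a cytotoxic granule protein, fell from 105.2, 70.4 and 109.9 FPKM to 38.5, 33.4 and 37.7 FPKM (-1.33 ± 0.17, adjusted p = 0.000807). Of the 16 T and NK markers 6, among them Cd3e, Zap70, Gzma and Gzmb, were at 0 in all 6 libraries, and the summed level of the list was 90.9 to 127.9 FPKM in young and 86.9 to 108.8 FPKM in old HSCs.

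Antigen presentation genes that passed the adjusted p were higher in old HSCs. All 4 of the class II genes that passed the adjusted p, of 9 tested, were higher, and the median of the 9 was 0.53. H2-Eb1, a class II beta chain, was at 27.6, 41.6 and 59.7 FPKM in young and at 120.6, 83.7 and 85.1 FPKM in old HSCs (log2 fold change 1.20 ± 0.24, adjusted p = 0.0124), and its fold fell under 2 without young replicate 1 (0.92, adjusted p = 0.0348). The invariant chain Cd74 was at 269, 275 and 405 FPKM in young and at 764, 500 and 449 FPKM in old HSCs (0.84 ± 0.19, adjusted p = 0.0257), so young replicate 3 and old replicate 3 lay close together. In the class I list 87.0% of 23 genes were above 0 with a median of 0.30, and H2-D1 went from 972 ± 136 to 1350.0 ± 119.1 FPKM (SD, n = 3; 0.48, adjusted p = 0.0228). The only class I gene called, H2-T3, was near 0 in young HSCs (0.295 ± 0.390 FPKM) and at 3.20 ± 1.43 FPKM in old ones, and lost its call without young replicate 1 (adjusted p = 0.0627), young replicate 2 (0.059), old replicate 2 (0.0646) or old replicate 3 (0.0573).

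Of 48 interferon-stimulated genes tested none was called higher in limma (9 at an unadjusted p below 0.05) and 2 were called lower. At any fold 4 passed the adjusted p upward and 2 downward, and the median was 0.09. Ifi27l2a fell from 11.9, 8.23 and 9.16 FPKM to 2.74, 1.70 and 0.196 FPKM (log2 fold change -2.22 ± 0.38, adjusted p = 0.0054). Ly6e, a GPI-anchored protein at high level in HSCs, went from 1446, 1320 and 1385 FPKM to 1979, 2294 and 1987 FPKM (0.59 ± 0.08, adjusted p = 0.00171), which passed the adjusted p but not the fold. Of 25 NF-kB genes 1 was called higher and 1 lower, with a median of -0.04, against 1.92% and 1.73% of all genes called. Bcl3, a nuclear cofactor, rose from 9.44, 16.3 and 11.1 FPKM to 23.2, 36.0 and 29.1 FPKM (1.21 ± 0.22, adjusted p = 0.0085). The subunit gene Rel was the lower one. Its call was lost on leaving out any library other than young replicate 3, with an adjusted p of up to 0.153. The lipopolysaccharide coreceptor Cd14 rose from 0.792, 0.460 and 0 FPKM to 3.84, 2.90 and 2.14 FPKM (1.50 ± 0.31, adjusted p = 0.0142).

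Among transcription factors, 4 of 23 Hox, Meis and Pbx genes were called higher and none lower, with a median of 0.32. These homeodomain proteins bind DNA together and several keep HSCs self-renewing. Meis3 was at 1.75, 2.61 and 2.94 FPKM in young and at 10.7, 10.3 and 9.02 FPKM in old HSCs (log2 fold change 1.69 ± 0.24, adjusted p = 0.00174), and Pbx3 went from 7.26, 6.84 and 7.58 FPKM to 16.4, 19.1 and 15.5 FPKM (1.13 ± 0.19, adjusted p = 0.00467). Neither gene's ages overlapped. Hoxb6 (1.304 ± 0.568 to 5.74 ± 2.09 FPKM) and Hoxb7 (0.516 ± 0.487 to 4.26 ± 2.27 FPKM; both SD, n = 3) lost their calls without young replicate 1 (adjusted p = 0.0543 and 0.0608) or old replicate 2 (0.0652 and 0.0564), and Hoxb6 also without old replicate 3 (0.0603), so the count of 4 became 2 without either of those first 2 libraries. The stem-cell factor Meis1 was not called (152 ± 8 and 179 ± 24 FPKM, 0.23, adjusted p = 0.322).

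The list of Kruppel-like, nuclear receptor and bHLH factors had 4 of 44 genes called higher and 1 lower, with a median of 0.08. Nr1h3, the oxysterol receptor LXR alpha, went from 1.06, 1.38 and 0.647 FPKM to 3.54, 3.60 and 5.64 FPKM (log2 fold change 1.37 ± 0.28, adjusted p = 0.0137), and was not called without old replicate 3 (0.0638). The retinoic acid receptor Rarb went from 3.78 ± 1.28 to 10.9 ± 4.1 FPKM (SD, n = 3) and was not called without young replicate 2 (adjusted p = 0.0864), young replicate 3 (0.0564) or old replicate 1 (0.0643). Aldh1a1, which makes retinoic acid from retinal and is a common stem-cell marker activity, rose from 40.1, 39.6 and 41.6 FPKM to 118.9, 90.1 and 105.3 FPKM (1.34 ± 0.13, adjusted p = 0.000137).

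The list of heme synthesis and tryptophan and nicotinamide metabolism (18 genes tested) had 1 gene called higher and 1 lower, with a median of 0.04. Cd38, a surface enzyme that consumes NAD (chr5:43868809-43912374), was at 7.48, 7.91 and 7.40 FPKM in young and at 29.0, 27.3 and 29.8 FPKM in old HSCs (log2 fold change 1.79 ± 0.17, adjusted p = 0.000109). Haao, an enzyme of the kynurenine route that makes the NAD precursor quinolinate, fell from 2.37, 3.80 and 4.44 FPKM to 0.389, 0.881 and 0.438 FPKM (-1.52 ± 0.29, adjusted p = 0.00939). Both pairs of groups were well separated. Of 33 glycolysis genes 2 passed the adjusted p without reaching the fold, and the lactate dehydrogenase chain Ldha went from 543.7 ± 43.9 to 746.9 ± 64.7 FPKM (SD, n = 3; 0.46, adjusted p = 0.0152). Of 41 galectin and glycan genes 1 was called higher and 1 lower, near the shares of all genes (1.92% and 1.73%). The galectin Lgals1 fell from 63.6, 62.9 and 53.9 FPKM to 20.3, 19.8 and 16.7 FPKM (-1.62 ± 0.14, adjusted p = 7.8e-05), and the sialyltransferase St3gal1 rose from 9.74, 8.22 and 7.74 FPKM to 19.8, 18.5 and 22.5 FPKM (1.15 ± 0.18, adjusted p = 0.00373).

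The largest group of lower genes belonged to the cell cycle. DNA replication genes come first in that order, since cells load the MCM helicase at origins in G1 and copy DNA in S phase. All 55 genes on the replication list were tested. None was called higher, 15 were called lower, 30 passed the adjusted p downward at any fold, and the median was -0.75. Tyms, which makes thymidylate (chr5:30038546-30073645), was at 192, 149 and 172 FPKM in young and at 102.1, 62.6 and 61.0 FPKM in old HSCs (log2 fold change -1.21 ± 0.18, adjusted p = 0.00265). Prim1, the catalytic subunit of DNA primase, went from 88.2, 72.9 and 82.6 FPKM to 43.8, 29.7 and 30.2 FPKM (-1.23 ± 0.16, adjusted p = 0.00116), and the licensing inhibitor Gmnn from 126.8, 82.4 and 90.7 FPKM to 50.7, 34.2 and 41.0 FPKM (-1.23 ± 0.18, adjusted p = 0.00248). The ages did not overlap for these genes.

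More abundant replication genes fell short of the fold. The sliding clamp Pcna went from 283.5, 213.5 and 254.4 FPKM to 160.3, 132.8 and 128.6 FPKM (log2 fold change -0.83 ± 0.13, adjusted p = 0.00288) and the clamp loader subunit Rfc2 from 306.5, 289.1 and 336.5 FPKM to 189, 167.7 and 172.1 FPKM (-0.81 ± 0.10, adjusted p = 0.000605). Of the MCM helicase, Mcm5 was called (34.6 ± 2.6 to 13.8 ± 7.3 FPKM, SD, n = 3; -1.43 ± 0.35, adjusted p = 0.0317), with old replicate 2 lowest at 5.33 FPKM. It was not called without young replicate 1 (0.101), young replicate 2 (0.0833), young replicate 3 (0.072) or old replicate 2, where the log2 fold change was -0.90. The ribonucleotide reductase subunit Rrm2 (28.4 ± 5.8 to 9.68 ± 5.02 FPKM) was not called without young replicate 1 (0.0748) or young replicate 2 (0.059). The count of 15 lower genes became 7 without young replicate 1.

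E2F transcription factors drive many of these genes, so short windows around an E2F site (TTTGGCGC or TTTCGCGC on either strand) are shown for called replication genes. Each is 30 bases of RefSeq sequence (GRCm38.p6), read on the gene's strand, with the site in capitals (in Mcm5 a pair of overlapping sites on opposite strands): Mcm5 (chr8:75109345-75109374, plus), Clspn (chr4:126556990-126557019, plus), Dtl (chr1:191575534-191575563, minus) and Pole2 (chr12:69228162-69228191, minus).
Mcm5: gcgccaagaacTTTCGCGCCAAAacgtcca
Clspn: accgcgtctggGCGCGAAAgctcgaacttc
Dtl: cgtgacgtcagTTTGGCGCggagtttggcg
Pole2: cgtcggcggtgGCGCCAAAtcgcgaacatg
The windows of Clspn, Dtl and Pole2 lie within annotated exons, and the Clspn and Pole2 sites lie after the start. Of the 12 lower replication genes with a RefSeq promoter 6 held such a site (50%), among them Lig1 and Uhrf1, whose windows are not shown. So did 26.1% of the 46 tested replication genes with a promoter and 1.89% of all 9079 tested genes with one. Clspn and Dtl, which act in the replication checkpoint and in degrading licensing factors, had log2 fold changes of -1.32 ± 0.23 (adjusted p = 0.00566) and -1.25 ± 0.23 (adjusted p = 0.00732) and were called whichever library was left out. Pole2, a subunit of DNA polymerase epsilon chosen after its values were seen, had -1.16 ± 0.27 (adjusted p = 0.025, up to 0.109 without 1 library).

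Mitotic genes fell further. Of 73 kinetochore, spindle and mitosis genes tested (74 in the tables), 37 were called lower and none higher, and the median was -1.33. Cdk1, the kinase that drives entry into mitosis (chr10:69335146-69352912), was at 94.8, 91.5 and 95.2 FPKM in young and at 30.2, 11.7 and 33.5 FPKM in old HSCs (log2 fold change -1.99 ± 0.29, adjusted p = 0.00248). Cdc20, which activates the anaphase-promoting complex, went from 36.7, 32.6 and 36.7 FPKM to 9.63, 4.82 and 12.5 FPKM (-1.95 ± 0.27, adjusted p = 0.00147). The kinetochore subunit Spc24 went from 53.3, 44.7 and 48.8 FPKM to 19.3, 4.09 and 13.8 FPKM (-2.11 ± 0.39, adjusted p = 0.00794), its partner scaffold Knl1 from 18.5, 20.2 and 14.5 FPKM to 3.46, 1.216 and 5.09 FPKM (-2.25 ± 0.33, adjusted p = 0.00248), and topoisomerase Top2a from 41.5, 30.9 and 32.2 FPKM to 16.2, 4.64 and 8.75 FPKM (-1.86 ± 0.32, adjusted p = 0.00613). No gene's ages overlapped, and old replicate 2 was the lowest library for each of these 5 genes.

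Pbk, a mitotic kinase and 1 of the 15 largest falls, showed the same order, from 68.7, 65.2 and 62.9 FPKM to 22.9, 3.41 and 15.2 FPKM (log2 fold change -2.48, adjusted p = 0.00815). Without old replicate 2 it was still called (-1.76, adjusted p = 0.000988). The survivin gene Birc5 (90.3 ± 15.5 to 20.3 ± 15.5 FPKM, SD, n = 3) and the proliferation marker Mki67 (7.03 ± 1.10 to 1.88 ± 1.13 FPKM) were called with all libraries (adjusted p = 0.0203 and 0.015) and not without young replicate 1 (0.0819 and 0.0666) or young replicate 2 (0.0548 and 0.0575). The count of 37 became 18 without young replicate 1 and 21 without young replicate 2, and was 33 without old replicate 2. Not every gene of the list was lower. The checkpoint protein Bub3 (129 ± 7 and 126 ± 9 FPKM) and securin, Pttg1 (152.5 ± 7.5 and 171.0 ± 12.0 FPKM), were not called (adjusted p = 0.933 and 0.428).

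**Figure D3:**
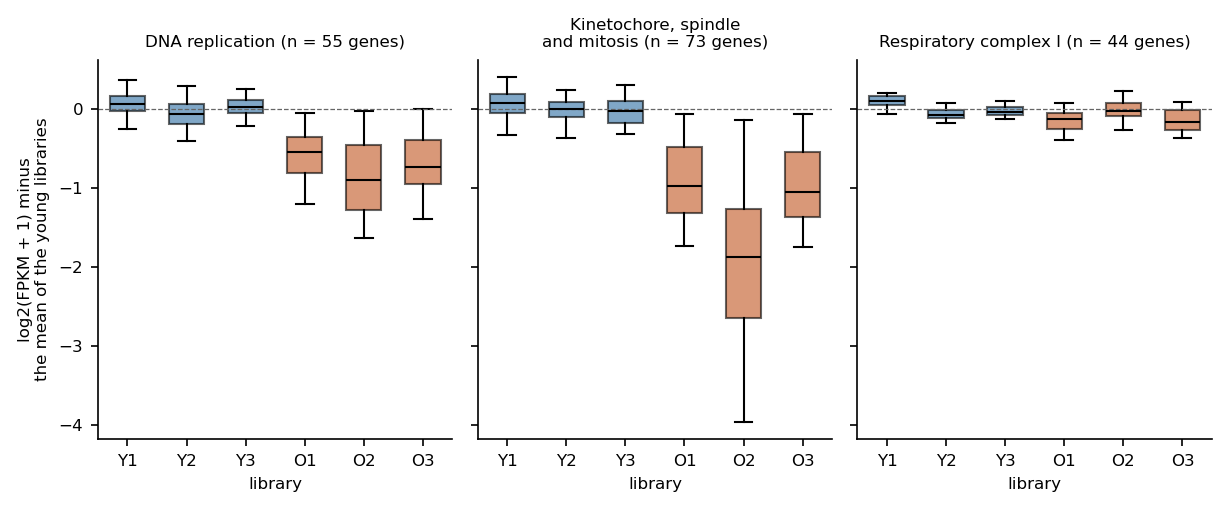
Replication, mitosis and respiratory complex I genes in each library (Y1 to Y3, young; O1 to O3, old), as log2(FPKM + 1) minus the mean of the young libraries. Boxes span the middle 50% of genes with the median as a line, and whiskers the 5th to 95th percentile. The 3 old libraries lie below the young ones for both cell cycle groups, with O2 lowest, while complex I stays near 0.

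Mitotic promoters often hold a cell cycle homology region (CHR, TTTGAA on either strand), which binds the DREAM and MYB-MuvB complexes. The 100 bases before the start are shown for called genes of this group, from RefSeq (GRCm38.p6) on the gene's strand, with the CHR in capitals: Cdk1 (chr10:69352913-69353012, minus), Cdc20 (chr4:118437344-118437443, minus), Ube2c (chr2:164769829-164769928, plus) and Kif11 (chr19:37376282-37376381, plus).
Cdk1: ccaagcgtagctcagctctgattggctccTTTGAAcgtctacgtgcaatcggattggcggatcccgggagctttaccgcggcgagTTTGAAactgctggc
Cdc20: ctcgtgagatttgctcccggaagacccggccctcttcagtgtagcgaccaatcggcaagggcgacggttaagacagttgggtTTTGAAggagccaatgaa
Ube2c: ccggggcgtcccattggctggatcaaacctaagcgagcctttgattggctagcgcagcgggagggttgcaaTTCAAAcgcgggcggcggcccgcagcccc
Kif11: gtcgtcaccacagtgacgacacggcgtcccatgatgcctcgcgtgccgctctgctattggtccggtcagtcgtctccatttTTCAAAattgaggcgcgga
The motif was in 23 of the 34 lower mitotic genes with a promoter (67.6%), in 65.2% of the 66 tested mitotic genes with one, and in 14.9% of all tested genes with one. It was in none of the 12 lower replication genes with a promoter. Of the 46 tested replication genes with one 10.9% held it, near the 14.9% of all tested genes. Lower and other members of the mitotic list thus held it at nearly the same share. Kif11, a spindle motor chosen after its values were seen, was at 6.54, 6.92 and 6.56 FPKM in young and at 2.21, 0.225 and 2.78 FPKM in old HSCs (log2 fold change -1.64 ± 0.38, adjusted p = 0.0246, up to 0.0817 without 1 library).

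Of 25 cyclins and cyclin-dependent kinases 8 were called lower and none higher. The D-type cyclins of G1 were not called. Ccnd2 was at 452 ± 49 and 447 ± 114 FPKM and Ccnd3 at 159 ± 2 and 161 ± 8 FPKM (SD, n = 3), while Ccnd1 was at 7.00 ± 2.18 and 13.7 ± 4.8 FPKM (log2 fold change 0.86, adjusted p = 0.121; it was called without old replicate 1). Ccne2, the E-type cyclin of S phase entry, fell from 16.5, 15.7 and 15.7 FPKM to 4.17, 2.38 and 4.62 FPKM (-1.88 ± 0.24, adjusted p = 0.000872). The mitotic cyclin Ccnb1 went from 25.8 ± 4.0 to 8.78 ± 5.78 FPKM (-1.61 ± 0.34, adjusted p = 0.0164) and was not called without young replicate 1 (0.0582). The count of 8 became 3 without young replicate 1 and 4 without young replicate 2.

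Of 25 inhibitors of the cycle and their targets 2 were called higher and 2 lower. The count of 2 lower genes became 1 without old replicate 1 and 0 without any other library. E2f1 and E2f8, which encode E2F transcription factors, were called lower. E2f1 kept its call only without old replicate 1, and E2f8 lost it on leaving out any library. Cdkn2c, which encodes the CDK4 and CDK6 inhibitor p18, was at 6.78, 7.95 and 8.53 FPKM in young and at 25.6, 26.6 and 28.0 FPKM in old HSCs (log2 fold change 1.67 ± 0.17, adjusted p = 0.000249). The retinoblastoma gene Rb1 went from 43.8, 39.2 and 43.4 FPKM to 67.1, 94.6 and 98.4 FPKM (1.01 ± 0.15, adjusted p = 0.0028), and its fold was under 2 without young replicate 2 (0.96), old replicate 2 (0.93) or old replicate 3 (0.91). The quiescence inhibitor Cdkn1c (33.2 ± 10.2 and 44.0 ± 2.7 FPKM, SD, n = 3) was not called (adjusted p = 0.261). Gadd45g, a growth-arrest and stress gene on the p53 list, rose from 13.8, 15.2 and 8.80 FPKM to 46.0, 63.3 and 70.5 FPKM (2.18 ± 0.22, adjusted p = 0.000185). That list had 3 of 31 genes called higher and a median of 0.01, and its count became 1 without young replicate 1 or old replicate 3.

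Repair genes split by pathway. Homologous recombination and Fanconi genes had 5 of 34 called lower, none higher and a median of -0.57, whereas excision, mismatch and end-joining genes had 1 of 44 called lower and a median of -0.05. Rad54b, a recombination translocase, went from 7.69, 8.15 and 8.86 FPKM to 3.35, 2.25 and 3.02 FPKM (log2 fold change -1.26 ± 0.23, adjusted p = 0.00799). The replication checkpoint kinase Chek1 went from 27.4, 23.3 and 21.7 FPKM to 6.80, 5.32 and 11.5 FPKM (-1.56 ± 0.25, adjusted p = 0.00356). The count of 5 recombination genes became 2 without young replicate 1, young replicate 2 or old replicate 2 and 3 without young replicate 3 or old replicate 3.

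Histone genes, a group chosen after its values were seen, moved with replication. Histone genes that are transcribed in S phase gave 18 lower and no higher calls among 55 tested, with a median of -1.16. Their summed level was 1948, 1651 and 3431 FPKM in young and 935.7, 503.6 and 769.3 FPKM in old HSCs, so the ages did not overlap and young replicate 3 was highest. H3c6 was at 20.1, 20.0 and 33.3 FPKM in young and at 4.78, 5.10 and 5.77 FPKM in old HSCs (log2 fold change -1.997, adjusted p = 0.000506). The linker histone H1f5, 1 of the 15 largest falls, went from 9.30, 7.34 and 10.4 FPKM to 2.58, 0 and 0.199 FPKM (-2.61 ± 0.42, adjusted p = 0.00375). The genes are near-identical copies that share reads, most of their messages lack a poly(A) tail, and the libraries were made from poly(A) RNA, so their individual values are uncertain. The count of 18 became 10 without old replicate 2.

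Of 41 Polycomb and Trithorax genes none was called, 1 passed the adjusted p upward and 1 downward, and the median was -0.02. Of 17 DNA methylation genes 1 was called lower, 3 passed downward and the median was -0.25. The maintenance methyltransferase Dnmt1 went from 26.6, 20.3 and 17.4 FPKM to 12.97, 10.2 and 8.60 FPKM (log2 fold change -0.95 ± 0.21, adjusted p = 0.0225) and the H3K27 methyltransferase Ezh2 from 59.1, 41.9 and 60.5 FPKM to 26.5, 32.6 and 23.0 FPKM (-0.95 ± 0.18, adjusted p = 0.00976). Neither reached the fold with all libraries. The ages did not overlap for either gene, though for Dnmt1 the gap between 17.4 and 12.97 FPKM was narrow. Ezh2's paralogue Ezh1, chosen after its values were seen, went from 9.77 ± 1.07 to 18.3 ± 3.7 FPKM (SD, n = 3; 0.83 ± 0.20, adjusted p = 0.0329). The high-mobility group gene Hmgb2, abundant in dividing cells, fell from 206, 162 and 172 FPKM to 93.2, 47.9 and 79.9 FPKM (-1.32 ± 0.20, adjusted p = 0.00293). The 59 histone modifiers and sirtuins held no gene that passed the adjusted p in limma (median -0.04), and at an unadjusted p below 0.05 they held 1 higher and 1 lower gene.

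The housekeeping machinery had medians from -0.23 to 0.01. Cytosolic ribosomal proteins (80 genes, median 0.01), the mitochondrial ribosome (75 genes, -0.09), respiratory complex I (44 genes, -0.12), complexes II to IV (33 genes, -0.15), ATP synthase (17 genes, -0.23) and the proteasome (47 genes, -0.04) had no gene that passed the adjusted p in limma. At an unadjusted p below 0.05 the ribosomal proteins held 3 higher and 2 lower genes, the mitochondrial ribosome 1 and 7, complex I 0 and 8, complexes II to IV 1 and 8, ATP synthase 0 and 10, and the proteasome 0 and 2. Of the complex I genes 25.0% had a fold change above 0, and of the ATP synthase genes 11.8%, against 52.0% of all genes tested, with medians that stayed below 0 in every alternative (-0.16 to -0.05 for complex I and -0.25 to -0.17 for ATP synthase). In the single-cell libraries described below, the old library was higher for 0 of 17 ATP synthase and 4 of 43 complex I genes. It was higher for 2 of 30 genes of complexes II to IV, 12 of 74 of the mitochondrial ribosome and 9 of 47 of the proteasome. For cytosolic ribosomal proteins it was 58 of 79, and over all genes tested in bulk 34.1%. Splicing factors had 4 of 61 genes lower at the adjusted p and none at the fold. Genes of the mitochondrial genome, 13 in all, had 0 FPKM throughout and were not used here.

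Of 25 HSC identity genes 2 were called higher (Procr and the sort antigen gene Slamf1), 8 passed the adjusted p upward and none downward, and the median was 0.44. In the single-cell libraries described below 13 of the 25 (52%) were higher and 12 lower in the old library, where 34.1% of all genes tested in bulk were higher. The haematopoietic factor Lmo2 went from 479, 504 and 510 FPKM to 705, 777 and 860 FPKM (log2 fold change 0.64 ± 0.09, adjusted p = 0.00174), without reaching the fold. Procr, the protein C receptor EPCR of dormant HSCs, went from 67.9, 85.8 and 71.0 FPKM to 143.9, 170.1 and 154.7 FPKM (1.05 ± 0.12, adjusted p = 0.000511), and its fold was just under 2 (0.99) without young replicate 1 or old replicate 2. It was 1 of 3 genes called higher among 12 complement and coagulation regulators, a count that became 0 without young replicate 1 or old replicate 2 and 1 without young replicate 2 or old replicate 3. Kit, Ly6a, Slamf1, Cd48 and Cd34 encode antigens of the sort and are given as a check of the gate only. Kit (58.3 ± 14.8 and 64.9 ± 17.4 FPKM) and Ly6a (515 ± 24 and 595.0 ± 74.8 FPKM; SD, n = 3) overlapped between ages. Slamf1, which encodes CD150, was at 17.5, 24.1 and 27.2 FPKM in young and at 40.1, 60.6 and 55.8 FPKM in old HSCs, and Cd34 at 77.6, 89.9 and 77.3 FPKM and at 30.0, 38.9 and 39.4 FPKM, although both ages were sorted as CD34- and CD150+. Cd48 was at 5.45, 1.02 and 4.06 FPKM in young and at 1.56, 0.568 and 0 FPKM in old HSCs (log2 fold change -1.35 ± 0.45, adjusted p = 0.114, called without young replicate 2). A list drawn up for the negative gate had 4 tested genes, Cd34, Cd48, Flt3 and Ptprc, with a median of -1.21. The methods name CD34 and CD48 as stained and do not name Flt3. Ptprc encodes every form of CD45, of which only B220 was used for depletion. The part of these genes in the lower lymphoid and cell cycle genes was not tested.

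HSCs of both ages were also profiled by 10x single-cell RNA-seq, with 1 library per age, which gives a reading on a second platform and no replicate test. After the study's filters 1104 young and 2758 old cells remained, with medians of 14501.5 and 13357.5 UMIs, and reads of all cells of a library were summed and scaled to CPM (UMI counts relative to a fixed library total). Whether the mice were the same as in bulk is not stated. Of the 217 genes called higher in bulk, 123 reached 10 CPM in either library, and 121 of these were higher in the old single-cell library. Of the 195 called lower 117 reached it, and 116 of these were lower. A gene that reached 10 CPM in only 1 library was higher in that library by the filter itself. These counts are thus a description of direction only. Over all genes tested in bulk 34.1% of those at 10 CPM were higher in the old library. The mitosis list had 48 of 50 and the replication list 49 of 51 genes lower in the old library, and the class II genes were higher for 7 of 7.

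Single genes kept their sizes in part. Bmpr1a was at 1.05 CPM in the young and 12.9 CPM in the old library, Klrb1c at 4.49 and 26.4 CPM, Gstm2 at 7.23 and 36.5 CPM, and Prtn3 at 410 and 844 CPM. Pf4, which fell by 1.99 on the log2 scale in bulk, was at 96.8 and 72.7 CPM. Slamf1 was at 37.7 and 34.6 CPM, so the higher bulk level was not seen in the droplet libraries, whereas Procr was at 109 and 216 CPM. The cholesterol synthesis and uptake list also differed between platforms. In bulk 86.2% of its 29 genes had a fold change above 0 (median 0.23), against 52.0% of all genes. In the single-cell libraries 4 of 25 genes (16%) were higher in the old library, against 34.1% of all genes tested in bulk.

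**Figure D4:**
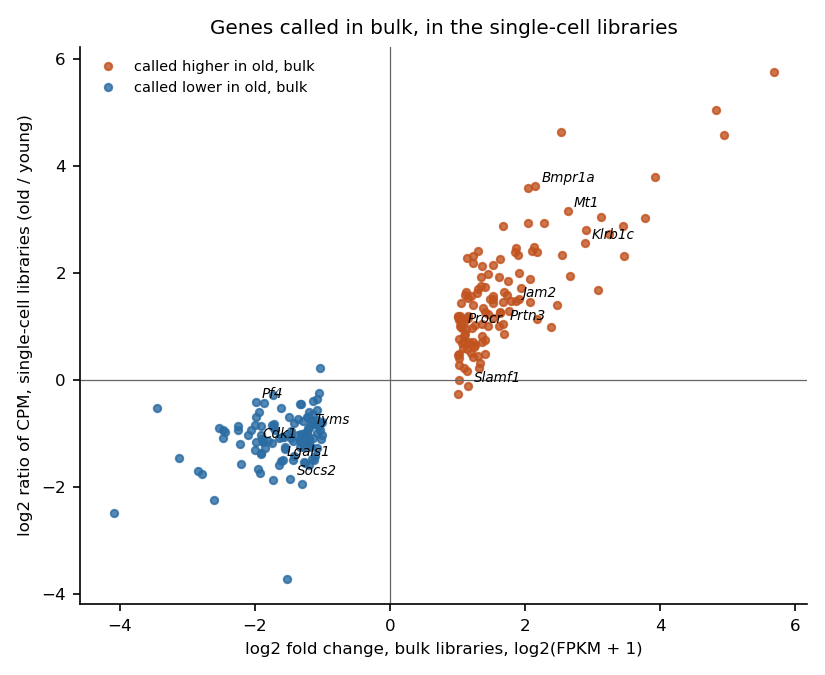
Genes called in bulk that reached 10 CPM in either single-cell library (240 genes). Horizontal axis, log2 fold change of the bulk libraries, old minus young; vertical axis, log2 ratio of CPM, old over young; orange, called higher in bulk, blue, called lower. Most points lie at the upper right and lower left, and Slamf1 lies just below 0 on the vertical axis.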

How the data were processed

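Bulk RNA was measured in 3 young and 3 old libraries of freshly sorted HSCs. The FPKM tables were deposited by the authors, who removed adaptors (Trim Galore), mapped reads on mm10 (HISAT2 2.0.0, then SAMtools 1.14) and counted reads per gene with HTSeq 0.12.4 without strand. The step that gave FPKM is not given in the sources used here (the processing notes also name Cufflinks). Reads of overlapping and antisense genes cannot be told apart without strand. FPKM values of repeated symbols were summed. Genes that averaged 1 FPKM or more in either age were tested on log2(FPKM + 1) with limma 3.58.1 (trend, robust off) in R 4.3.3, with Benjamini-Hochberg adjustment over all genes tested. The limma step was tested on simulated data. Called means adjusted p below 0.05 and a fold above 2 or below 0.5. The share of all genes at an unadjusted p below 0.05 was not counted, so group counts at that p have no background beside them.

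The gene groups and members were chosen with earlier results of these data known. Named genes were the 15 largest rises and the 15 largest falls among called genes without overlap, up to 8 called and 3 most abundant members of each group, and the defining genes marked in each group; other genes are said to be chosen after their values were seen. List names that matched no symbol were not analysed here. UMI counts of the 10x libraries, deposited by the authors as matrices, were kept for cells with at least 800 genes and at most 5% mitochondrial UMIs, summed per library and expressed as CPM. Doublets were left in, 1 barcode was shared by both libraries, and with 1 library per age no test was made. Promoters are from RefSeq (GRCm38.p6). Python 3.11.15, pandas 2.3.3, numpy 2.4.6, scipy 1.17.1 and matplotlib 3.10.9 were used. Alternatives were a pseudocount of 0.1, no filter, a minimum of 5 FPKM, other scalings, all 24 bulk libraries, a replicate block and each library left out. Some genes are not reported here.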

Additional observations from a re-analysis of the deposited data

How the results depend on the processing

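None of the called named genes changed sign under any alternative run. This says little, since groups did not overlap for 216 of 217 higher and all 195 lower calls. Leaving out a library or changing the pseudocount could not change the sign of those genes. A change of sign in at least 1 run was seen for 89 of 477 named genes, none of them called. It was also seen for 26 of 93 group medians, among them the erythroid markers (-0.39 without old replicate 1). Without old replicate 1 the balance of calls turned from 217 higher and 195 lower to 211 and 218. Without a filter on low values limma called 50 genes higher and 11 lower, with 0 replication and 1 mitotic gene among the lower, and the cause was not tested. In the fit with all genes passing the filter, 44 of 55 replication genes and 63 of 73 mitotic genes were lower at an unadjusted p below 0.05. The share of all genes at that p was not counted. At the adjusted p and any fold 30 and 43 of them were lower, against 2.85% of all genes. Leaving out 1 library at a time gave 154 to 212 higher and 113 to 218 lower genes, 7 to 19 lower replication genes with a median of -0.85 to -0.60, and 18 to 44 lower mitotic genes. The lowest counts of lower genes came without young replicate 1, and the median of -0.60 without old replicate 2. Of 162 named genes that were called, 65 were no longer called without young replicate 1 and 57 without young replicate 2, against 26 without old replicate 1. The other scalings (the same FPKM sum and quantile normalization) each lost 3 of the 162, a pseudocount of 0.1 lost 19, and the spread from all 24 bulk libraries, with 167 higher and 140 lower genes, lost 37.

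Deviations of same-numbered libraries from their group means correlated at 0.11, 0.038 and 0.028 across genes. Those of differently numbered libraries correlated at -0.068 to 0.031. Such weak correlations cannot show whether the replicate numbers pair the libraries. With the replicate block 217 genes were higher and 202 lower, and 7 of the 162 called named genes were no longer called. The FPKM tables hold no counts, so what depth limits cannot be given per library, and fold changes of low genes are understated by the pseudocount of 1.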
